A study of Homo sapiens with 11 samples.

Results

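The 37 genes described here encode proteins that prepare and carry out DNA replication in S phase, together with the cyclin E and E2F proteins that start it. They were taken by name from a fixed list, matched to GENCODE 29 gene symbols, and make up 37 of the 58721 genes in the deposited count table. The rule itself uses names and no measured value, but the members were chosen with earlier results of these data known. The cells were A375, a long-established melanoma line of human origin with an activating mutation in BRAF, labelled WT in every sample, and their poly(A) RNA was sequenced. There were 11 libraries: 1 of untreated parental cells, 5 of persister cells kept in 2 nM trametinib for 8 weeks (persister 1 to 5), and 5 of cells taken 4 weeks after the drug had been removed (withdrawn 1 to 5). Trametinib inhibits MEK, the kinase between BRAF and ERK. Each withdrawn library carries the name of the persister culture with the same number, but nothing in the labels says that the 5 cultures were selected separately. The p-values therefore reflect no more than the spread among these samples, and that spread may be technical. With 1 library the parental group gives no spread, and its spread was assumed to equal that of the other groups.

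Before S phase, the origin recognition complex, CDC6 and CDT1 load the ring of MCM2 to MCM7 onto DNA, a step called licensing. At the start of S phase, cyclin E with its kinase helps to convert each loaded ring into an active helicase with CDC45 and the GINS proteins, and the polymerases copy DNA behind it, held by the sliding clamp PCNA. Many of these genes are transcribed by E2F factors, which are held back by the RB protein until growth signals such as those passing through MEK and ERK raise cyclin D. In bulk RNA of a culture, fewer cells in S phase and less of each RNA per cell cannot be told apart.

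The promoters of 6 members are printed. Octamers that E2F proteins are known to bind stand in the 3 genes that were lower in persister cells, in MCM6, and in PCNA, which was not called in either direction in the main edgeR fit. CCNE1 is added as the member with the smallest spread among the persister cultures. It has none of these octamers, and neither have RRM2, MCM10, TK1 and CDC45, whose spreads were among the widest. RFC4, RFC5 and POLD1, which were called higher on withdrawal, have none either. Each printed promoter runs 5′ to 3′ on the strand of its gene, from 250 bases before to 50 bases after the start (RefSeq, GRCh38.p14). Capitals mark the octamers TTTCCCGC, TTTCGCGC, TTTGCCGC or TTTGGCGC on either strand. Only these exact letters were searched, so a promoter without them may hold another form of an E2F site. The windows are chr1:23531184-23531483 (minus strand) for E2F2, chrX:24693668-24693967 (plus) for POLA1, chr12:132687293-132687592 (minus) for POLE, chr2:135876394-135876693 (minus) for MCM6, chr20:5126573-5126872 (minus) for PCNA and chr19:29811741-29812040 (plus) for CCNE1.
E2F2: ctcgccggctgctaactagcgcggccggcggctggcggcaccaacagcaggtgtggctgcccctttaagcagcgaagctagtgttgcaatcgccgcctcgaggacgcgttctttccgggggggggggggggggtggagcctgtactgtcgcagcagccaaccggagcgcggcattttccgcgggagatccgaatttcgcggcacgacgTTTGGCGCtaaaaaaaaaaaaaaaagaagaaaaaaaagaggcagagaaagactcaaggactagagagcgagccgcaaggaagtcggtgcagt
POLA1: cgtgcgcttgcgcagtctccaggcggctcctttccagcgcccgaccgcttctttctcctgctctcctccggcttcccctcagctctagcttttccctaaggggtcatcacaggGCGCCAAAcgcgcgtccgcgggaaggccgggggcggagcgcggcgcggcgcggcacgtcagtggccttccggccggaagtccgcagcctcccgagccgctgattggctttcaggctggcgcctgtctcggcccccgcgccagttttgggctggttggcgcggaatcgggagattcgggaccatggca
POLE: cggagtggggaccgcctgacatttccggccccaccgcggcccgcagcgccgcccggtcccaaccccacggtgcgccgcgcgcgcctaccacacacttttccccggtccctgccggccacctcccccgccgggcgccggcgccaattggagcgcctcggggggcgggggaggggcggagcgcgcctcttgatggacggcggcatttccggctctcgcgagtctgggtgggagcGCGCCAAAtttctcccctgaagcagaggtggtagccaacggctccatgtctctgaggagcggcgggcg
MCM6: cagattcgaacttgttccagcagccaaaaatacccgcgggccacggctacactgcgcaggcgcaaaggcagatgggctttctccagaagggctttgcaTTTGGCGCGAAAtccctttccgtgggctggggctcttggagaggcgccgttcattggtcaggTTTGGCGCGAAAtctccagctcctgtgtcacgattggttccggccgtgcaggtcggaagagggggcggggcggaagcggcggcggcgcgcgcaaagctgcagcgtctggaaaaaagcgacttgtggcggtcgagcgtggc
PCNA: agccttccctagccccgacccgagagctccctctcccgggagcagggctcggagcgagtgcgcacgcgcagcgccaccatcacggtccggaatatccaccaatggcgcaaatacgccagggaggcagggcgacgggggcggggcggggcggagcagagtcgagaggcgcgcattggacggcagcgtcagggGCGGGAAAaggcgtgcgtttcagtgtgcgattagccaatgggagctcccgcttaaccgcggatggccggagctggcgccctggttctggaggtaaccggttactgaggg
CCNE1: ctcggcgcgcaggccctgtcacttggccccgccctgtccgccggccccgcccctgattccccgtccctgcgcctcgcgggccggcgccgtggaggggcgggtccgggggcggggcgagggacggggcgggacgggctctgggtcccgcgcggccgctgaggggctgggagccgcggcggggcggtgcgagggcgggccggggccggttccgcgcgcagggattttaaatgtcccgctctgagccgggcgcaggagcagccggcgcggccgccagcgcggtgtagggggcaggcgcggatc
The octamer began 42 bases before the start in E2F2, 137 in POLA1, 18 in POLE and 59 in PCNA. In MCM6 2 pairs of overlapping octamers lay 152 and 148, and 90 and 86, bases before the start.

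Of the 37 members, 32 had a promoter in the RefSeq table, and 17 of these (53.1%) held at least 1 of the octamers. Over all 27305 promoters of the same length, 908 (3.33%) did. The CCAAT pentamer, bound by NF-Y, stood in 19 of 32 member promoters (59.4%) and in 35.7% of all promoters. The hexamer TTTGAA, one form of the cell cycle homology region of late cell cycle genes, stood in 1 of 32 (3.12%, RRM1) and in 15.4% of all. These are matches of letters on either strand, which can overlap one another, and the motifs were not tested against expression. MCM4, MCM5, GINS4, CCNE2 and E2F8 were not in the table.

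Total counts ranged from 56513920 to 82984566 per library, no 2 libraries held identical values, and all 37 members passed the filter on low counts among the 23693 genes tested. The lowest count of any member was 26 reads, for E2F8 in persister 5, and every other member had at least 116 reads in each library. Values are given as CPM, counts scaled to a common library size. The 9 melanoma markers were not steady. SOX10 stood at 635 CPM in the parental, 29.2 to 86.7 in the persister and 792 to 838 in the withdrawn libraries, and S100B at 71.7, 6.88 to 24.5 and 89.2 to 99.1. DCT stood at 2.94, 229 to 740.4 and 16.4 to 64.1 CPM, MLANA at 1.15, 11.03 to 23.5 and 0.445 to 0.826, and TYRP1 at 0.122, 2.26 to 7.43 and 0.057 to 0.151. MITF stood at 78.4, 89.7 to 119 and 109.9 to 172 CPM, and TYR at no more than 0.09 anywhere. PMEL stood at 0.413, 0.822 to 2.77 and 0.875 to 1.62 CPM, and S100A1 at 11.1, 2.21 to 4.26 and 21.3 to 26.98. Summed markers of keratinocytes and epithelium (4 genes) did not exceed 5.51 CPM, and KRT1 among them had 0 counts everywhere. Those of leukocytes (5 genes) did not exceed 0.693 CPM. Summed endothelial markers (4 genes) were 17.9 CPM in the parental, 2.18 to 15.3 in the persister and 16.3 to 26.4 in the withdrawn libraries. KDR alone made up 1.78 to 14.7 CPM of those persister sums. The summed level of 6 genes switched on by ERK was 2010 CPM in the parental library, 250 to 544 in the persister and 2210 to 2510 in the withdrawn libraries.

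The replication genes did not have one level in the drug-treated cells: they differed widely among the 5 persister cultures and were nearly even among the withdrawn ones. As a median over the 37 members, persister 1 to 5 stood at 40.3%, 93.9%, 71.6%, 72.5% and 18.0% of the parental CPM, and withdrawn 1 to 5 at 82.9%, 77.8%, 81.1%, 80.6% and 77.3%. Persister 5 was the lowest of the 5 for 36 members and persister 1 the second lowest for all 37. Persister 2 was the highest for 34, and persister 4 for POLA1, E2F2 and CCNE1. Over all genes tested, persister 5 was lowest in 24.6%, persister 1 second lowest in 21.7% and persister 2 highest in 24.8%. Persister 2 was also the library most often lowest over all genes, in 26.8%. In persister 2, 16 members stood above the parental library, against 3 in persister 3, 1 in persister 4 and none in persister 1 or 5.

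**Figure D1:**
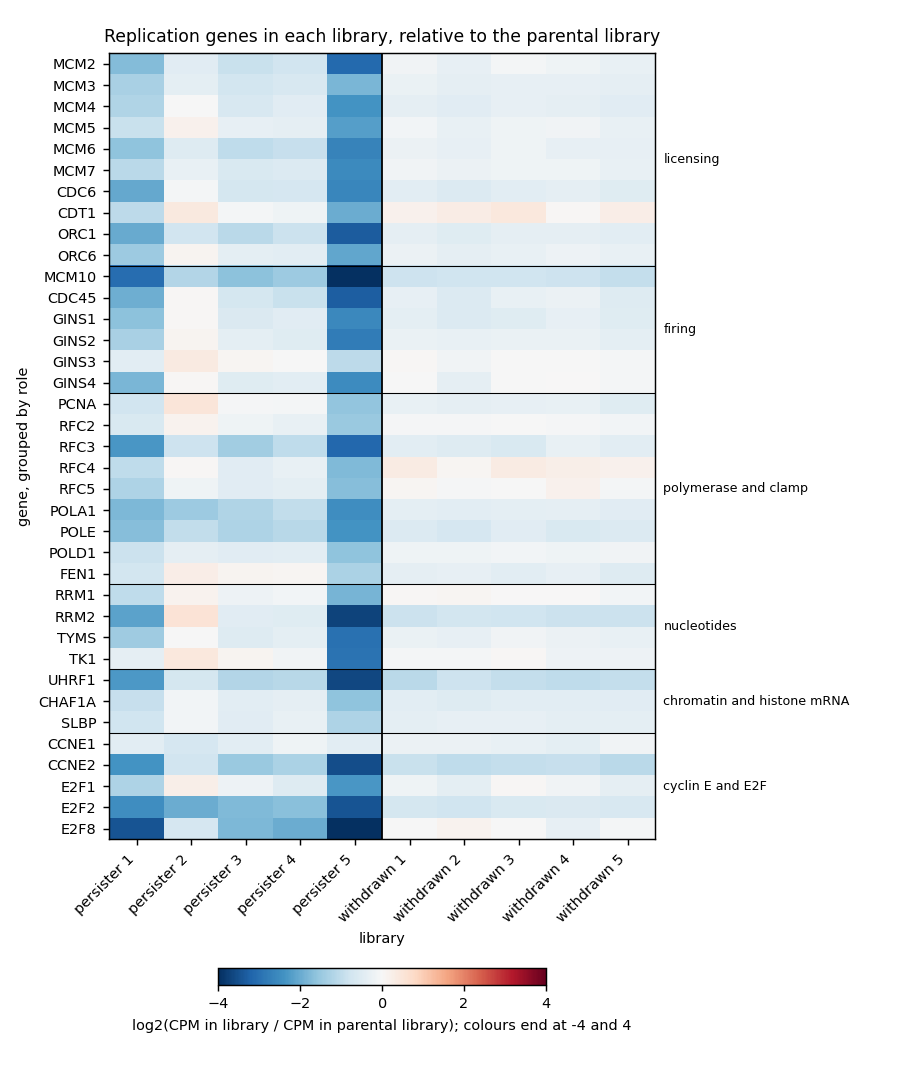
Colour gives the log2 ratio of CPM in each persister or withdrawn library (columns) to the CPM in the single parental library, for the 37 genes (rows, grouped by role); blue is lower than parental and red is higher. Persister 5 is the darkest blue column for 36 of the 37 genes, persister 2 stands near the parental level for most, and the withdrawn columns are pale.

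The range over the persister libraries, as a log2 ratio of the highest to the lowest, had a median of 2.3 over the members, against 1.01 over all genes tested. Over the withdrawn libraries the median range was 0.191 for the members and 0.428 for all genes. The persister range passed 1, a factor of 2, for 36 of 37 members and for 50.4% of all genes, and it passed 2 for 23 of 37 and for 19.8% of all genes. The share of counts from mitochondrial genes also differed: it was 8.88% in persister 1 and 9.28% in persister 5, and 4.51%, 6.72% and 4.64% in persister 2, 3 and 4. It was 2.96% in the parental and 3.15% to 3.70% in the withdrawn libraries. Summed fibroblast markers (5 genes) were 15.1 CPM in the parental, 51.8 to 332 in the persister and 23.2 to 30.5 in the withdrawn libraries, and LUM alone made up 32.7 to 292 CPM of the persister sums. DCN stood at 2.703 to 29.6 CPM in persister cells, PDGFRB at 11.3 to 31.6 (10.9 in parental cells), and COL1A1 and COL1A2 at no more than 6.11. The part that these shares and marker levels, those of melanoma included, have in the members' values was not tested.

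Persister cells were first compared with parental cells. In persister cells 3 of the 37 members were lower, namely E2F2, POLA1 and POLE, and none was higher, by edgeR's quasi-likelihood test with Benjamini-Hochberg adjustment over all genes tested. The same threshold called 15.1% of all genes lower and 16.1% higher. Every member's log2 fold change was below 0, with a median of -0.74 against 0.09 for all genes, and 12 members passed at an unadjusted p under 0.05 (20.2% of all genes were lower at that p). All 5 persister libraries lay below the parental library for 21 of 37 members, and for 30.9% of all genes. Without persister 5, 12 members were called lower (17.1% of all genes), without persister 2, 9 were (18.0%) and without persister 4, 5 were (15.6%), while fitting only the 6 libraries of these groups left E2F2 alone (5.33% of all genes were lower in that fit).

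Cells after withdrawal were then compared with persister cells, a comparison that shares the 5 persister libraries with the first. In withdrawn cells 10 members were higher and none was lower, where 24.5% of all genes were called higher and 28.0% lower. They were MCM3 and MCM6 of the helicase ring, the clamp loader subunits RFC3, RFC4 and RFC5, the polymerase subunits POLA1, POLE and POLD1, and the transcription factors E2F2 and E2F8. The median log2 fold change was 0.51 for the members and -0.03 for all genes, and 34 members had a value above 0. The withdrawn and persister libraries did not overlap, with withdrawn higher, for 13 members and for 20.3% of all genes. Leaving out 1 library left 4 members called without persister 1 or withdrawn 1 (23.7% and 21.7% of all genes), 5 without withdrawn 3 (21.9%), and 6 without withdrawn 2, 4 or 5 (22.0%, 22.2% and 21.5%). POLA1, POLE, E2F2 and E2F8 were called each time, and E2F8 lost its call only without a low-count filter (adjusted p = 0.0663). With the culture number as a replicate block, 13 members were higher (26.5% of all genes), the added ones being MCM2 (log2 fold change 1.14, adjusted p = 0.0357), MCM10 (1.46, 0.0388) and ORC1 (1.16, 0.0382).

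The change with withdrawal, taken culture by culture, followed how low each culture had been in the drug. As a median over the members, the log2 change from persister to withdrawn was 1.2 in culture 1, -0.187 in culture 2, 0.331 in culture 3, 0.269 in culture 4 and 2.08 in culture 5. The same medians over all genes tested lay between -0.0187 and 0. In cultures 1 and 5 all 37 members were higher after withdrawal, in culture 3 it was 32 and in culture 4 it was 30. In culture 2 only 15 were higher, and 14 members were higher in all 5 cultures. The withdrawn libraries lay close together, so these differences repeat the persister values and are no separate measurement.

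**Figure D2:**
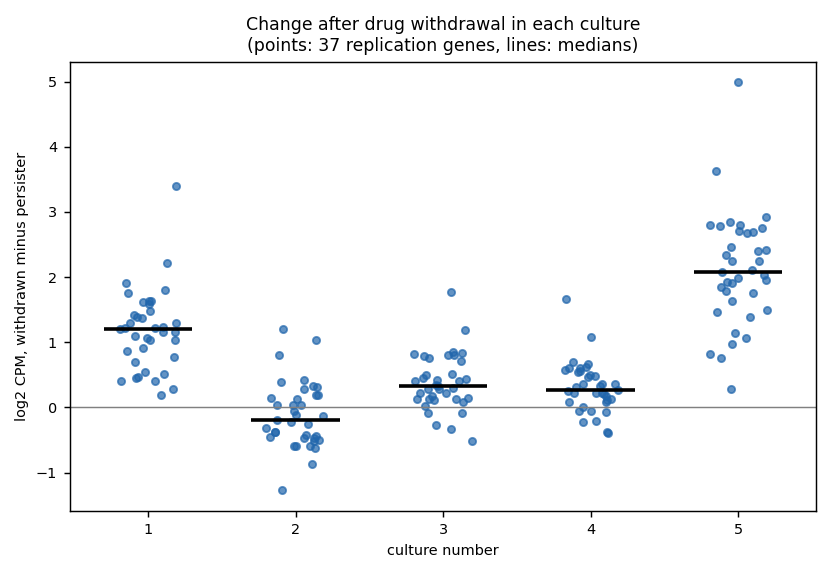
Each point is 1 of the 37 genes, and its height is the log2 CPM after withdrawal minus the log2 CPM in the persister library of the same culture number (x axis, cultures 1 to 5). All 37 points lie above 0 in cultures 1 and 5, and 15 do in culture 2.

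No member passed the test between withdrawn and parental cells. By edgeR 0 members were called, 0 had an unadjusted p under 0.05, and DESeq2 and limma-voom also called 0, while 0.312% of all genes were called higher and 0.118% lower. The values nevertheless leaned to one side: 33 of 37 log2 fold changes were below 0, with a median of -0.29 against 0.05 for all genes. All 5 withdrawn libraries lay below the parental library for 28 members (30.8% of all genes) and above it for CDT1 and RFC4 (33.0%). In a fit of only the 6 libraries of these groups, where the withdrawn libraries alone give the spread, 24 members were lower and 14.4% of all genes were. Both comparisons with parental cells share the same single library.

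**Figure D3:**
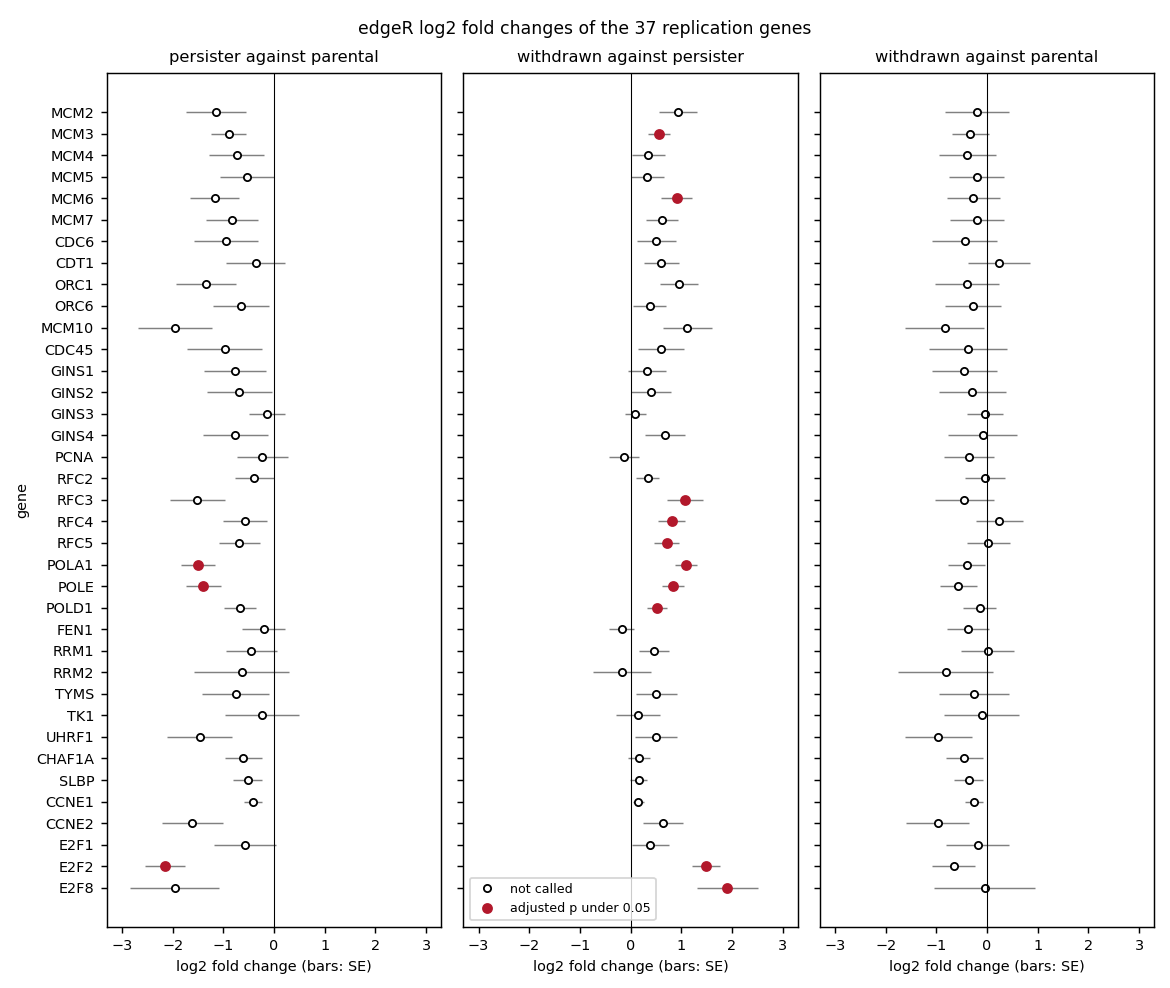
Points give edgeR's log2 fold change of each of the 37 genes in each of the 3 comparisons, with bars of 1 standard error; filled points passed an adjusted p of 0.05. Filled points are E2F2, POLA1 and POLE for persister against parental, 10 genes for withdrawn against persister, and none for withdrawn against parental.

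Among the licensing genes, 2 of 10 were called in the main edgeR fit, both higher on withdrawal, where 24.5% of all genes were called higher. MCM6, a subunit of the helicase ring (135839626 to 135876426 of chromosome 2, GRCh38), stood at 133 CPM in parental cells, at 43.6, 94.01, 66.6, 70.6 and 20.8 CPM in persister 1 to 5, and at 114, 107, 119, 107 and 106 CPM in withdrawn 1 to 5. Every withdrawn value exceeded every persister value, and every library lay below the parental one. MCM6 rose 1.87-fold on withdrawal (log2 fold change 0.91 ± 0.31 (SE), adjusted p = 0.0291), while for persister against parental cells it was -1.17 ± 0.49 (adjusted p = 0.0893). MCM3, another subunit of the ring (52264009 to 52284881 of chromosome 6), stood at 184 CPM in parental cells, at 73.99, 139, 111, 118 and 51.5 CPM in persister 1 to 5, and at 152, 143, 146, 146 and 142 CPM in withdrawn 1 to 5. The lowest withdrawn value was only just above persister 2, at 139 CPM. Its rise on withdrawal was 1.48-fold (log2 fold change 0.56 ± 0.22, adjusted p = 0.0481), and the call held in 6 of 18 alternative analyses. It ended without persister 1, 3 or 4 or any 1 withdrawn library (adjusted p up to 0.103). That of MCM6 ended without persister 1 or withdrawn 1, 2, 3 or 5 (up to 0.0624). Both ended without a low-count filter (0.0883 for MCM3 and 0.0805 for MCM6). The call of MCM3 also ended with RLE scaling, at least 10 counts in 5 libraries or only the 2 groups (0.0521 to 0.0527). Against parental cells MCM3 and MCM6 were each called in 3 of 17 alternatives in persister and 1 of 17 in withdrawn cells.

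The other licensing genes were not called in any comparison by the main edgeR fit. On withdrawal MCM2 and ORC1 were called with the replicate block (adjusted p = 0.0357 and 0.0382), and in 6 and 7 of 18 alternative analyses in all. MCM7 was called there in 2 and CDT1 in 1. Against parental cells, persister MCM2 was called in 1 of 17 alternatives, and MCM7 and ORC1 in 2 each. For withdrawn against parental cells MCM4, MCM5, MCM7, CDC6, ORC1 and ORC6 were each called in 1 of 17. All counts of alternatives in this text include the fit without persister 1 and 5, which were singled out by the members' own levels. MCM2 went from 129 CPM in parental cells to 15.1 to 94.2 in persister and 103 to 121 in withdrawn cells, without overlap between the last 2 groups (adjusted p = 0.0565). ORC1, the subunit of the origin recognition complex made anew in each cycle, had 55.7 CPM in parental, 5.49 to 32.7 in persister and 39.8 to 43.5 in withdrawn cells, again without overlap (adjusted p = 0.0546). In persister 2, ORC1 stood at 58.7% of the parental level, when the members' median there was 93.9%. CDT1, the loading factor that is destroyed in S phase, was at 33.8 CPM in parental, 8.54 to 44.6 in persister and 34.7 to 45.3 in withdrawn cells, so it lay above parental in each withdrawn library. MCM4, MCM5 and MCM7 of the ring, the loader CDC6 and the origin complex subunit ORC6 had log2 fold changes of -0.74, -0.54, -0.83, -0.95 and -0.65 for persister against parental cells. On withdrawal these were 0.35, 0.33, 0.62, 0.51 and 0.38 in the same order.

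None of the 6 genes of origin firing was called in the main edgeR fit of all 11 libraries. Of these genes, 2 had among the widest ranges over the persister cultures. In alternative analyses MCM10 was called in 5 of 17 against parental cells and in 6 of 18 on withdrawal. For withdrawn against parental cells MCM10 was called in 2 of 17, and CDC45, GINS1 and GINS2 in 1 each. MCM10, which helps to activate the assembled helicase, stood at 79.2 CPM in parental cells, at 9.62, 35.1, 25.4, 28.8 and 3.26 CPM in persister 1 to 5, and at 44.5, 45.8, 45.9, 44.3 and 40.6 CPM in withdrawn 1 to 5. Its highest persister value was 10.8 times its lowest, and even persister 2 reached only 44.4% of the parental level. The log2 fold change was -1.95 ± 0.72 for persister against parental (adjusted p = 0.062) and 1.11 ± 0.48 on withdrawal (adjusted p = 0.0743), where the block gave 1.46 ± 0.49 (adjusted p = 0.0388). CDC45, a core part of the active helicase, was at 32.9 CPM in parental cells, at 8.51, 34.1, 20.01, 17.8 and 3.32 CPM in persister 1 to 5, and at 26.4, 22.5, 26.5, 28.2 and 23.1 CPM in withdrawn 1 to 5. Persister 2 lay near the parental level, persister 5 lay below persister 2 by a factor of 10.3, and the withdrawn values fell between (adjusted p = 0.296 on withdrawal). GINS1, GINS2 and GINS4, which join CDC45 on the helicase, ranged over 10.8 to 66.8, 5.56 to 40.96 and 4.06 to 24.1 CPM in persister cells, around parental values of 64.04, 38.3 and 23.2. GINS3, the remaining subunit, varied less: it stood at 20.9 CPM in parental cells, at 15.5, 26.98, 21.96, 20.6 and 10.04 CPM in persister 1 to 5, and at 21.5, 18.8, 20.6, 20.7 and 19.8 CPM in withdrawn 1 to 5. Its persister values lay on both sides of the parental one, with a log2 fold change of -0.13 ± 0.36 (adjusted p = 0.799).

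The 9 genes of the polymerases, the clamp and its partners held 2 of the 3 calls against parental cells and 6 of the 10 calls on withdrawal. Over all genes 15.1% were called lower against parental cells and 24.5% higher on withdrawal. POLA1, the catalytic subunit of the polymerase that lays the primers (24693919 to 24996986 of chromosome X), stood at 116 CPM in parental cells, at 33.4, 42.5, 49.95, 58.9 and 20.9 CPM in persister 1 to 5, and at 88.4, 86.8, 88.1, 89.7 and 85.4 CPM in withdrawn 1 to 5. The 3 groups did not overlap, and persister 2 reached only 36.7% of the parental level. POLA1 fell 2.82-fold in persister cells (log2 fold change -1.50 ± 0.34 (SE), adjusted p = 0.00703) and was 2.13-fold higher after withdrawal than in the drug (1.09 ± 0.22, adjusted p = 0.00157). POLE, the catalytic subunit of the leading strand polymerase (132623753 to 132687365 of chromosome 12), stood at 105 CPM in parental cells, at 31.9, 53.2, 44.8, 48.99 and 19.9 CPM in persister 1 to 5, and at 71.4, 65.9, 76.1, 68.5 and 71.7 CPM in withdrawn 1 to 5. Here too the groups did not overlap, and withdrawn cells lay between the others. POLE fell 2.63-fold in persister cells (log2 fold change -1.40 ± 0.34, adjusted p = 0.00997) and was 1.78-fold higher after withdrawal (0.83 ± 0.22, adjusted p = 0.00763). Both calls against parental cells ended when only the 6 libraries of those groups were fitted (adjusted p = 0.069 for POLA1 and 0.0818 for POLE).

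POLD1, the catalytic subunit of the lagging strand polymerase (50384204 to 50418016 of chromosome 19), was steadier: it stood at 54.1 CPM in parental cells, at 29.9, 42.1, 39.8, 40.2 and 17.6 CPM in persister 1 to 5, and at 48.3, 48.3, 50.1, 48.4 and 49.3 CPM in withdrawn 1 to 5. It was 1.44-fold higher after withdrawal (log2 fold change 0.53 ± 0.20, adjusted p = 0.039), and 426 of its 3527 exonic bases are shared with AC020909.1 on the same strand. RFC3, a subunit of the loader that opens the clamp (33818049 to 33966558 of chromosome 13), stood at 124 CPM in parental cells, at 24.8, 69.3, 46.8, 61.2 and 14.1 CPM in persister 1 to 5, and at 93.2, 86.7, 81.7, 99.6 and 91.6 CPM in withdrawn 1 to 5. Among the loader genes it was the lowest relative to parental cells in persister 2 (56.1%), and it rose 2.095-fold on withdrawal (1.07 ± 0.35, adjusted p = 0.0265). For persister against parental cells RFC3 was called in 7 of 17 alternative analyses and POLD1 in 2. RFC4 (186789880 to 186807058 of chromosome 3), another loader subunit, was at 36.95 CPM in parental cells, at 18.1, 38.3, 27.1, 29.9 and 10.9 CPM in persister 1 to 5, and at 46.8, 39.3, 46.5, 43.6 and 41.8 CPM in withdrawn 1 to 5. All withdrawn values of RFC4 lay above the parental one, and the rise on withdrawal was 1.75-fold (0.81 ± 0.27, adjusted p = 0.0247). RFC5 (118013588 to 118033130 of chromosome 12), also of the loader, was at 49.8 CPM in parental cells, at 21.1, 44.1, 36.6, 38.0 and 15.2 CPM in persister 1 to 5, and at 52.2, 48.5, 49.2, 56.2 and 47.3 CPM in withdrawn 1 to 5. It rose 1.64-fold (0.71 ± 0.25, adjusted p = 0.0317), and its withdrawn values lay on both sides of the parental one. The calls of RFC3, RFC4, RFC5 and POLD1 ended without persister 1 and without withdrawn 1, with adjusted p from 0.0506 to 0.0807. Those of RFC5 and POLD1 also ended without any other withdrawn library (0.0533 to 0.0788), that of RFC3 without withdrawn 4 (0.0509) and that of RFC4 without withdrawn 3 (0.0517), and all 4 ended without a low-count filter (0.0538 to 0.08).

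PCNA, the clamp itself, did not separate the groups. It stood at 238 CPM in parental cells, at 139.9, 336, 229, 227 and 80.3 CPM in persister 1 to 5, and at 192, 184, 189.7, 195 and 169 CPM in withdrawn 1 to 5. Persister 2 was at 141% of the parental level and persister 5 at 33.7%, and the log2 fold change was -0.23 ± 0.50 in persister against parental cells and -0.12 ± 0.30 on withdrawal (adjusted p = 0.748 and 0.746). FEN1, the nuclease that trims lagging strand flaps, showed the same order, with 162 CPM in parental, 67.4 to 194 in persister and 114 to 130.1 in withdrawn cells. RFC2, a loader subunit, ranged over 27.8 to 86.7 CPM in persister and 72.8 to 77.9 in withdrawn cells, around 77.9 in parental cells. In alternative analyses PCNA and FEN1 were each called on withdrawal in 1 of 18. For withdrawn against parental cells POLE and FEN1 were called in 2 of 17 each, and POLA1, RFC3 and PCNA in 1 each.

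**Figure D4:**
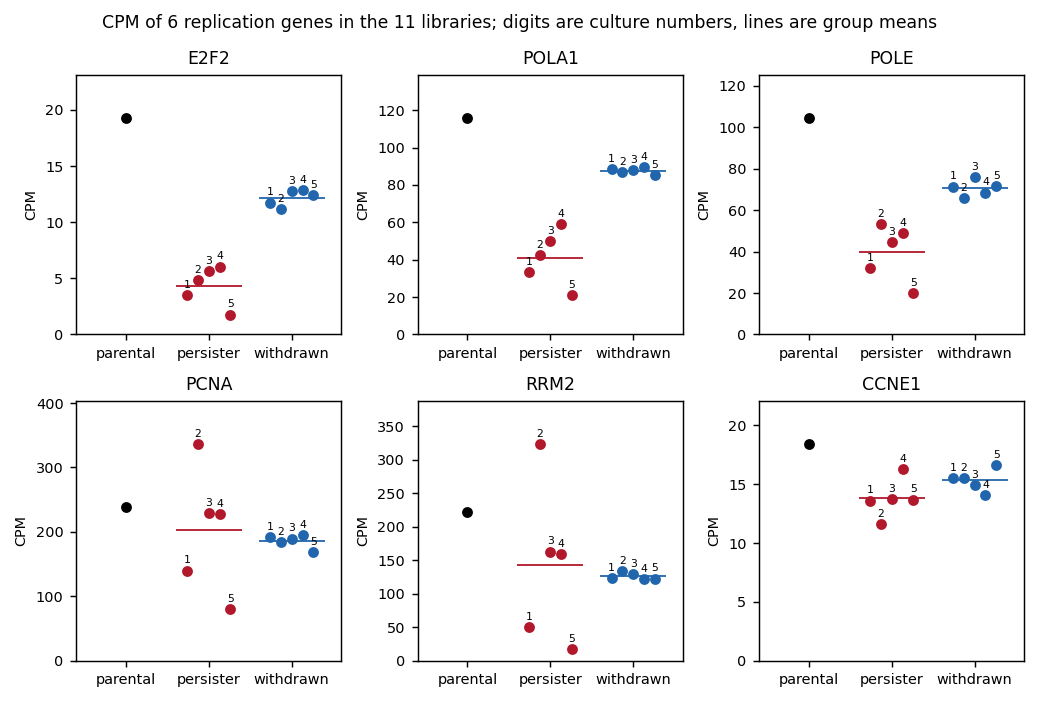
CPM (y axis, from 0, a different scale in each panel) of E2F2, POLA1, POLE, PCNA, RRM2 and CCNE1 in the parental library (black), the 5 persister libraries (red) and the 5 withdrawn libraries (blue); digits are culture numbers and lines are means of 5. In the upper panels the groups do not overlap, in PCNA and RRM2 persister 2 lies above the parental library and persister 5 far below it, and in CCNE1 the persister and withdrawn libraries overlap.

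None of the 4 genes of nucleotide supply was called in any comparison by the main edgeR fit. In alternative analyses RRM2 was called on withdrawal in 1 of 18. For withdrawn against parental cells RRM2 and TYMS were each called in 1 of 17. RRM2, the regulatory subunit of ribonucleotide reductase that is made mainly in S phase, stood at 222 CPM in parental cells, at 50.4, 323, 163, 159 and 17.02 CPM in persister 1 to 5, and at 123, 134, 129, 122 and 123 CPM in withdrawn 1 to 5. Its persister values spanned a factor of 19.0, from 7.65% to 145% of the parental level, and the withdrawn values lay inside that span. The log2 fold change was -0.64 ± 0.94 against parental cells and -0.18 ± 0.57 on withdrawal (adjusted p = 0.629 and 0.813); 1077 of its 3859 exonic bases are shared with AC007240.1. TK1, the salvage kinase for thymidine, stood at 68.1 CPM in parental cells, at 52.7, 90.7, 74.1, 61.4 and 8.81 CPM in persister 1 to 5, and at 63.8, 64.4, 70.1, 59.1 and 59.5 CPM in withdrawn 1 to 5. Persister 5 alone was far below the rest, at 12.9% of the parental level, while persister 1 kept 77.4% (adjusted p = 0.823 against parental cells). RRM1, the large subunit of the reductase, was at 186 CPM in parental, 51.1 to 203 in persister and 174 to 195 in withdrawn cells. TYMS, which makes thymidylate, was at 66.5, 8.41 to 65.9 and 52.9 to 59.9 CPM, and shares 967 of its 1662 exonic bases with ENOSF1 on the opposite strand, which stood at 17.9 to 21.6 CPM in persister cells.

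The 3 genes of chromatin and histone mRNA were below the parental library in all 10 other libraries and were not called in the main edgeR fit. In alternative analyses UHRF1 was called in 2 of 17 for persister against parental cells. For withdrawn against parental cells UHRF1 and CHAF1A were called in 2 of 17 each, and SLBP in 1. UHRF1, which brings the maintenance methyltransferase to copied DNA, was at 142 CPM in parental, 11.4 to 86.2 in persister and 67.1 to 78.9 in withdrawn cells. Its withdrawn values were 47.4% to 55.7% of the parental one, a log2 fold change of -0.96 ± 0.66 (adjusted p = 0.531). CHAF1A, a subunit of the chaperone that places histones on new DNA, was at 77.9, 25.5 to 71.6 and 54.8 to 58.6 CPM. SLBP, which binds histone mRNA, had one of the smallest ranges: it stood at 98.9 CPM in parental cells, at 57.1, 91.96, 72.96, 80.2 and 42.4 CPM in persister 1 to 5, and at 75.9, 78.3, 79.6, 76.1 and 75.03 CPM in withdrawn 1 to 5. Its persister and withdrawn values overlapped (adjusted p = 0.451).

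Of the 5 cyclin E and E2F genes, E2F2 was called in both comparisons that involve persister cells and E2F8 on withdrawal. The shares over all genes were 15.1% lower against parental cells and 24.5% higher on withdrawal. E2F2, an activating member of the family (23506430 to 23531220 of chromosome 1), stood at 19.3 CPM in parental cells, at 3.47, 4.83, 5.63, 6.04 and 1.76 CPM in persister 1 to 5, and at 11.8, 11.2, 12.8, 12.8 and 12.4 CPM in withdrawn 1 to 5. The 3 groups did not overlap, and even the highest persister library, persister 4, reached 31.3% of the parental level. E2F2 fell 4.43-fold in persister cells (log2 fold change -2.15 ± 0.39 (SE), adjusted p = 0.0021) and rose 2.802-fold on withdrawal (1.49 ± 0.27, adjusted p = 0.000688). It was called lower in 17 of 17 alternative analyses, with an adjusted p of at most 0.0412. E2F8, a repressing member that is itself an E2F target (19224063 to 19241620 of chromosome 11), stood at 12.8 CPM in parental cells, at 1.17, 8.097, 3.71, 3.21 and 0.355 CPM in persister 1 to 5, and at 12.6, 14.1, 12.7, 10.3 and 12.2 CPM in withdrawn 1 to 5. This was the widest persister range of all members, a factor of 22.8, and the withdrawn values lay on both sides of the parental one. E2F8 rose 3.76-fold on withdrawal (log2 fold change 1.91 ± 0.60, adjusted p = 0.0201), while against parental cells the persister value was -1.96 ± 0.88 (adjusted p = 0.113). That persister value was called in 3 of 17 alternative analyses. Withdrawn against parental E2F2 was called in 2 of 17.

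CCNE1, which encodes cyclin E1, departed from the order of the cultures. It stood at 18.4 CPM in parental cells, at 13.6, 11.6, 13.7, 16.3 and 13.7 CPM in persister 1 to 5, and at 15.5, 15.5, 14.9, 14.1 and 16.6 CPM in withdrawn 1 to 5. Its lowest persister library was persister 2 and not persister 5, and the persister values spanned a factor of only 1.40. All 10 values lay below the parental one, with a log2 fold change of -0.42 ± 0.17 for persister cells (adjusted p = 0.0857). CCNE2, which encodes the related cyclin E2, instead ranged over 1.58 to 10.8 CPM in persister and 8.82 to 9.97 in withdrawn cells, below 18.5 in parental cells (-1.61 ± 0.60, adjusted p = 0.0618). For persister against parental cells CCNE2 was called in 5 of 17 alternative analyses and CCNE1 in 1. For withdrawn against parental cells CCNE2 was called in 2 of 17. CCNE2 shares 1629 of its 3432 exonic bases with INTS8 on the opposite strand, which stood at 56.9 to 72.4 CPM in persister cells, and whether the counting used strand is not given in the sources used here. E2F1, an activating member, was at 32.97 CPM in parental, 6.55 to 38.7 in persister and 25.04 to 34.4 in withdrawn cells (-0.58 ± 0.61, adjusted p = 0.496 for persister against parental).

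Of 50 other replication genes taken from a written list, 8 were lower and 1 was higher in persister than in parental cells, 17 were higher and 1 was lower on withdrawal, and 0 were called between withdrawn and parental cells by edgeR (2 were lower at an unadjusted p under 0.05, and DESeq2 and limma-voom called 0). Over all genes these shares were 15.1% lower and 16.1% higher, and 24.5% higher and 28.0% lower, and 8 of 50 lies near the first. In the fit of only the 6 libraries of persister and parental cells 0 of the 50 were called (5.33% of all genes were lower). Without persister 2, 15 were lower (18.0% of all genes), and without persister 5, 12 were (17.1%). Between withdrawn and parental cells a fit of only their 6 libraries called 3 higher and 21 lower (3483 of 21590 genes higher, 14.4% lower). On withdrawal 11 were higher without a low-count filter (5581 of 40697 genes). Their median stood at 44.1%, 98.6%, 72.3%, 76.2% and 30.8% of parental in persister 1 to 5. The smallest adjusted p against parental cells were those of ORC4, an origin complex subunit (log2 fold change -0.64, adjusted p = 0.00288), E2F3, an activating E2F (-1.04, 0.00493), MCM9, a helicase of recombination (-0.98, 0.00744), MCMBP, which binds the ring (-1.10, 0.0093), and TOPBP1, which acts in origin firing (-1.09, 0.0137). POLE4, a small subunit of the leading strand polymerase, moved the other way, from 13.9 to 27.2 CPM (0.97, adjusted p = 0.0152). In the fit of 6 libraries the adjusted p of these 6 genes were 0.0569 for ORC4 to 0.101 for TOPBP1, and each was called in the other 16 alternative analyses. On withdrawal POLE4 fell by 0.69 on the log2 scale (adjusted p = 0.00143), while MCM9 (0.80, 0.000591), TOPBP1 (0.74, 0.00445), ATAD5, which unloads the clamp (1.28, 0.00607), MCMBP (0.66, 0.00621) and ORC4 (0.29, 0.00671) rose.

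A list of 25 mitosis genes, given for its values alone, had a median of 27.0%, 105%, 93.7%, 82.9% and 11.6% of parental in persister 1 to 5 and of 94.6% to 104% in the withdrawn libraries. Between persister and parental cells 0 were called by edgeR, DESeq2 or limma-voom, and 0 had an unadjusted p under 0.05 by edgeR. By edgeR only PTTG1, the securin gene, was called on withdrawal (log2 fold change 1.05, adjusted p = 0.0217), where the replicate block and DESeq2 each called 4 and limma-voom 7. Over all genes edgeR called 24.5% higher on withdrawal, the block 26.5%, DESeq2 5946 of 23693 and limma-voom 6219 of 23693. In the withdrawn libraries the replication members' medians were 77.3% to 82.9% of parental, and the difference between the lists was not tested.

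Among 9 genes of cell cycle inhibitors and the RB family, 8 were tested: CDKN1A was higher and CDKN1C and RB1 were lower in persister than in parental cells, and CDKN1B, CDKN1C and RBL2 were higher and CDKN1A was lower on withdrawal. CDKN1A, the gene of the p21 inhibitor of cyclin-dependent kinases, stood at 60.6 CPM in the parental library and at 635, 520.1, 495, 429 and 480.4 CPM in persister 1 to 5. CDKN1C, the gene of the related p57, stood at 7.14 CPM in the parental and at 0.0154 to 0.56 CPM in the persister libraries (adjusted p = 0.000518). RB1, which encodes the RB protein, stood at 204 CPM in the parental library and at 81.6, 153, 107, 150.4 and 92.9 CPM in persister 1 to 5 (log2 fold change -0.81 ± 0.27, adjusted p = 0.0391). Its call held in 10 of 17 alternative analyses and ended without persister 3, without any 1 withdrawn library and with only 6 libraries (adjusted p from 0.0545 to 0.171). RBL1, of the same family, stood at 72.2 CPM in the parental library and at 22.4, 71.1, 38.1, 48.9 and 18.2 CPM in persister 1 to 5, and was not called (-0.86 ± 0.51, adjusted p = 0.217). CDKN1B, the gene of the inhibitor p27, and RBL2, of the RB family, were higher on withdrawal by 0.68 and 0.69 on the log2 scale (adjusted p = 0.000245 and 6.39e-05).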

How the data were processed

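Stranded mRNA libraries were made from total RNA, per the labels' protocols. The tools named are bcl2fastq, HISAT2 and HTSeq, with the build hg38, per the submitters' processing notes. Their versions, the annotation and the strand setting are not given by the sources used here. The authors deposited whole-number read counts per gene, not normalized. Gene names came from GENCODE 29, whose IDs matched all 58721 rows. Exon bases of 15 members overlap those of another gene, which for 13 lies on the opposite strand, so some reads may be mixed.

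The deposited counts were fitted with edgeR 4.0.16 in R 4.3.3: filterByExpr (minimum count 10), TMM scaling, robust quasi-likelihood tests of all 11 libraries in 3 groups with 8 residual degrees of freedom, and Benjamini-Hochberg adjustment over 23693 genes with a threshold of 0.05. CPM used TMM library sizes, and log2 CPM a prior count of 2. The unblocked edgeR, limma-voom and DESeq2 fits of all 11 libraries were first run on simulated data with 200 changed genes. The simulation gave each gene the same spread in all groups, unlike the members here. The block and the fits of only 2 groups were not simulated. Alternatives were DESeq2 1.42.0, limma-voom (limma 3.58.1), other scaling and filters, only the 2 groups compared, libraries left out, and the culture number as a block. The titles of withdrawn samples name their persister culture, which pairs them, and deviations of same-numbered libraries correlated at 0.0484 to 0.0909 across genes, highest with the own number in 5 of 5. All members are named. Those called, and the 5 with the widest and the 5 with the narrowest persister range, have every library value, and 6 genes of the other replication list at most are named per comparison. PCNA was added after its values were seen. Members and lists were chosen with earlier results of these data known.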

Additional observations from a re-analysis of the deposited data

Results flagged for a closer look

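GINS2, a subunit of the active helicase, stood at 29.4 CPM in withdrawn 5 and at 31.5 to 32.2 CPM in the other 4 withdrawn libraries. The gap to the nearest library was 0.755 of the whole range, above the critical value of 0.71 for 5 samples. It was the only 1 of 74 such groups of member values to pass, where chance gives about 1 in 20. The part of this library in the values of GINS2 was not tested beyond leaving it out.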

How the results depend on the processing

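Over 1924 recomputed values of the members, 1755 kept their direction and side of the threshold, 92 gained and 43 lost significance, and 34 changed sign, all of them without a call in either analysis. Members lower in persister than in parental cells numbered 3 (15.1% of all genes), 6 with DESeq2 (3843 of 23693 genes) and 7 with limma-voom (3922 of 23693). They numbered 1 with only the 2 groups (5.33% of all genes), 3 to 12 leaving out 1 library (3148 to 4235 genes), and 14 without persister 1 and 5. Members higher on withdrawal numbered 10 (24.5% of all genes), 13 with the replicate block (26.5%) and 3 without a low-count filter (5581 of 40697 genes). Leaving out 1 library gave 4 to 14 (5058 to 6091 genes). Without persister 1 and 5, PCNA, RRM2 and FEN1 were called lower (3 in place of 0). Members lower in withdrawn than in parental cells numbered 0 (0.118% of all genes), 24 with only the 2 groups (14.4%), 7 without persister 1 and 5, and 0 leaving out 1 library (4 to 184 genes). Persister 1 and 5 were singled out by the members' own levels, so that alternative is a description, and its counts have no share over all genes beside them. It is nevertheless included in the 1924 values and in every count of alternatives above. The block changed no other member's call, and the causes of the other differences were not tested. Over all genes, 74 were higher and 28 lower in withdrawn than in parental cells, or 775 and 409 with DESeq2 and 3483 and 3110 with only the 2 groups.

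Sign changes were small. Without persister 1 and 5, log2 fold changes against parental cells were 0.0745 for CDT1, 0.156 for GINS3, 0.154 for PCNA, 0.149 for FEN1 and 0.151 for TK1. On withdrawal they were then -0.0534 for MCM4, -0.0553 for MCM5, -0.152 for GINS1, -0.0578 for GINS2, -0.195 for GINS3, -0.0575 for E2F1, -0.0637 for ORC6, -0.147 for CHAF1A, -0.253 for TK1 and -0.0888 for SLBP. On withdrawal PCNA was 0.0356 and RRM2 0.438 with limma-voom, and 0.0151 and 0.346 with the replicate block. RRM1 in withdrawn against parental cells was -0.0125 with DESeq2, -0.0125 with RLE scaling, -0.00206 with at least 10 counts in 5 libraries and -0.0039 with only the 2 groups. Leaving out 1 library gave -0.293 to 0.0285 for GINS3 and -0.467 to 0.0356 for TK1 against parental cells. On withdrawal it gave -0.0682 to 0.252 for GINS3, -0.328 to 0.135 for PCNA, -0.464 to 0.372 for RRM2, -0.0113 to 0.311 for CHAF1A and -0.138 to 0.364 for TK1. In withdrawn against parental cells it gave -0.0132 to 0.0429 for RFC5, -0.0112 to 0.0308 for RRM1 and -0.109 to 0.0098 for E2F8.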
